A study of Mus musculus with 38 samples.

Results

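The SREBP, ChREBP and LXR transcriptional regulators of lipid synthesis were examined in brown adipose tissue of C57BL/6J mice. They are 9 genes, Srebf1, Srebf2, Scap, Insig1, Insig2, Mlxipl, Mlx, Nr1h2 and Nr1h3, which were found by their names in the array's annotation among 29411 gene names. All 9 were among the 21625 genes tested. Weaned mice of 3 to 4 weeks of age were divided into 5 groups of 30 animals. The group named LFC received a diet with 10% of its calories from fat. The group named HFC received a high-fat high-sucrose diet with 60% of its calories from fat. The groups HF5, HF20 and HF75 received the HFC diet with 5, 20 or 75 µg of Kal-1, an aqueous ethano-botanical formulation, so every dose group also carried the high-fat diet. Both diets have 10 arrays each, taken on days 6, 10 and 14 and in weeks 0, 3, 6, 9, 12, 15 and 18. The dose groups were sampled at weeks 3 to 18, with 6 arrays each. A group has a single array at any time point, and its arrays at different times stand in for replicates. The sources do not say whether an array holds RNA of 1 animal or of several.

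Cells match the making of fatty acids and cholesterol to their supply through a small set of transcription factors. The SREBP proteins are made as precursors in the membrane of the endoplasmic reticulum. SCAP carries them to the Golgi apparatus, where proteases free the active fragment, and the INSIG proteins hold SCAP back when sterols are plentiful. ChREBP, the product of Mlxipl, responds to products of glucose and binds DNA as a dimer with MLX. The liver X receptors LXRα (Nr1h3) and LXRβ (Nr1h2) are nuclear receptors for oxysterols, act as dimers with RXR, and induce Srebf1. In brown adipose tissue these factors drive lipogenesis from glucose, which runs beside fatty acid burning in the same cells.

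Sequences of 4 motifs were searched in the promoters of these genes, because several of the regulators bind DNA near each other's start sites. RefSeq start sites (GRCm38.p6) were found for 9 of 9 genes, 16 start sites in all. Each window reached from 250 bases before to 50 bases after the start, and motifs were searched on both strands. The E-box letters CACGTG, a core that MLX-containing dimers and SREBP-1 are known to bind, were in 5 of the 16 windows and in 7.15% of all 32851 promoters. The sterol regulatory element TCACNCCAC was in 1 of the 16 and in 1.24% of all. The CCAAT box, the letters of the NF-Y site that often accompanies sterol elements, was in 7 of the 16 and in 37.4% of all. The GC box GGGCGG was in 9 of the 16 and in 35.7% of all. The 250 bases before the start are shown for Mlxipl, Insig1 and Mlx, whose promoters hold these elements and whose probes are described most closely in what follows. Capitals mark the E-box, the sterol regulatory element and the CCAAT box on either strand. All 4 windows lie on the plus strand.
Mlxipl, upstream start, chr5:135089640-135089889: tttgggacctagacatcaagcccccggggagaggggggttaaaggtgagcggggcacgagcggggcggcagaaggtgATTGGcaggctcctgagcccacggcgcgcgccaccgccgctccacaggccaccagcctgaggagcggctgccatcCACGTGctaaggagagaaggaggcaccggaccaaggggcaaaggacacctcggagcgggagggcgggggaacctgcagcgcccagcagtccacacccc
Mlxipl, downstream start, chr5:135106641-135106890: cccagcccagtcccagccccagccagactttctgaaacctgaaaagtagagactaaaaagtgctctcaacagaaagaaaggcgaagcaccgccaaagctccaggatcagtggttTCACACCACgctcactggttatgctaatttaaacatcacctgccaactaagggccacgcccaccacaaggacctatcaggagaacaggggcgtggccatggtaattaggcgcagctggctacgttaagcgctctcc
Insig1, chr5:28071162-28071411: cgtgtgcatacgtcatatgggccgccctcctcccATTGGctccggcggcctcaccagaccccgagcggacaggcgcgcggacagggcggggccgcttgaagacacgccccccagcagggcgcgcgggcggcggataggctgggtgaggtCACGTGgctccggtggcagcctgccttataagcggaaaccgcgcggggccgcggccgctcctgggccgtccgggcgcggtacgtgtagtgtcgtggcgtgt
Mlx, chr11:101087040-101087289: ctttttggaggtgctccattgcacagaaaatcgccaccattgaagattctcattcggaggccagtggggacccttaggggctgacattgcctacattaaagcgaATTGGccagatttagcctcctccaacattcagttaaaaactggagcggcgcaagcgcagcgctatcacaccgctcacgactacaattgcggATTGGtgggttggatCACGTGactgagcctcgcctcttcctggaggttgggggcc
The E-box of the upstream Mlxipl start began 98 bases before the start, that of Insig1 101 bases before it and that of Mlx 40 bases before it. ChREBP is known in a longer alpha form and in a shorter beta form, whose transcript starts at an upstream exon. The downstream Mlxipl window held the sterol regulatory element, 136 bases before the start, and no E-box. The windows of the 2 Scap starts overlap and share 1 E-box. No window of Nr1h2 or Nr1h3 held any of the 4 motifs, and the 3 windows of Srebf1 held CCAAT or GC boxes only. These are matches of letters, not sites of binding.

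Levels are given as log2 of the processed signal minus the 75th percentile of the array, so that 0 is the 75th percentile itself. They follow 1 probe over arrays and cannot be ranked between genes. The arrays differed in brightness. Their 75th percentile ran from 35.1 to 1209 intensity units, and a gap above 430 separated 27 dim from 11 bright arrays. Bright arrays numbered 4 in LFC, 2 in HFC, 0 in HF5, 4 in HF20 and 1 in HF75. Of 10 brown adipocyte markers 8 were well above background on every array. One array stood apart. On the array labelled HF75 at Week 3 the level of Ucp1, the uncoupling protein of brown fat, was -3.07, whereas on the other 37 arrays it lay between 3.38 and 8.57. Cidea was at -1.78 there and at 5.58 or more on the others, and the summed level of the macrophage markers, 4.46, was the highest of all arrays. The summed level of the brown markers was 6.59 on that array and at least 8.31 on all others. Among the brown markers Fabp4 was saturated on all 38 arrays, Ucp1 on 8, and Cidea, Cox7a1 and Adipoq on 10 each. The sums are therefore lower bounds and cannot be compared closely between arrays. Skeletal muscle markers were also uneven, with summed levels from -0.22 to 10.51. Fewer cells of a type and less RNA per cell cannot be told apart in such tissue samples.

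Of the regulators 7 were well above background on all 38 arrays. Srebf2 was so on 31, with 3 of 6 HF75 arrays, and Insig1 on 32, also with 3 of 6 HF75 arrays. The Srebf1 probe was saturated on 3 arrays, 2 of LFC and 1 of HF20, so its highest levels are lower bounds. Srebf2, Insig1 and Insig2 had a second probe. Over the 38 arrays the probes of Insig1 correlated at r = 0.87, rho = 0.82 and those of Insig2 at r = 0.48, rho = 0.57. Those of Srebf2 went against each other, with r = -0.33 and rho = -0.32, and its second probe was well above background on only 7 arrays. The level of Srebf2 is therefore the least secure of the set.

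**Figure D1:**
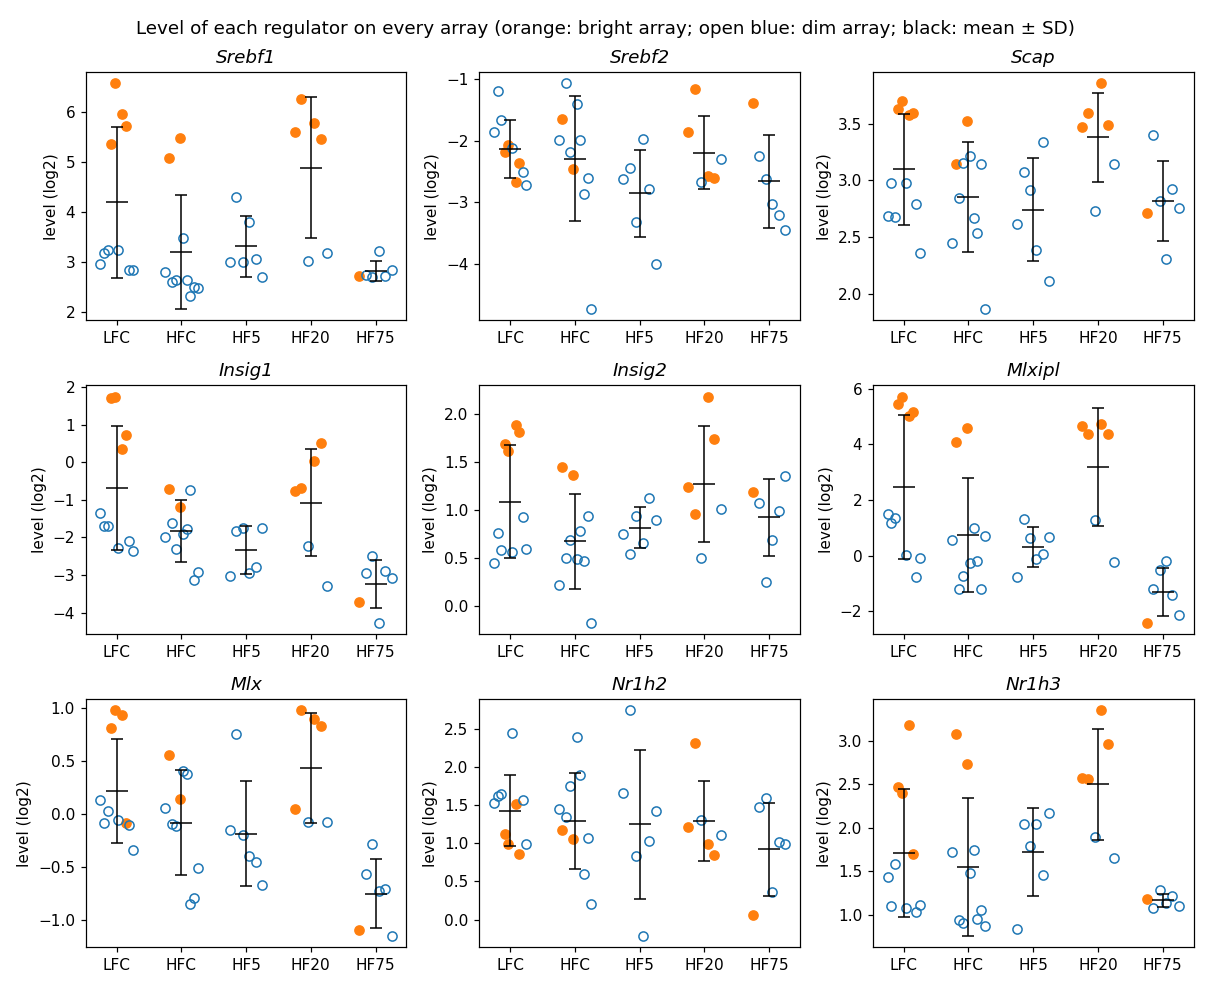
Level of each regulator (log2 signal minus the array's 75th percentile, vertical axis of each panel) on every array of the 5 groups, in order of time within a group. Filled orange points are bright arrays, open blue points dim arrays, and black bars the mean ± SD. For Mlxipl 10 of the 11 bright arrays lie at 4.08 or above and all dim arrays at 1.51 or below.

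Among the regulators that process sterol signals, Insig1 had the widest range, 6.01, and Srebf1 the next, 4.26. The level of Srebf1, which encodes SREBP-1a and SREBP-1c, ran from 2.83 through a median of 3.23 to 6.57 in LFC and from 2.31 through 2.63 to 5.48 in HFC. In HF5 it ran from 2.69 through 3.03 to 4.30, in HF20 from 3.01 through 5.53 to 6.26, and in HF75 from 2.69 through 2.73 to 3.21. All 5 groups overlapped, and the high values of LFC, HFC and HF20 were those of bright arrays. Insig1 encodes an anchor of SCAP and is itself an SREBP target. Its level ran from -2.35 through -1.53 to 1.74 in LFC and from -3.13 through -1.85 to -0.72 in HFC. It ran from -3.03 through -2.30 to -1.74 in HF5, from -3.29 through -0.74 to 0.51 in HF20, and from -4.27 through -3.02 to -2.51 in HF75. Insig1 levels of HF75 overlapped with those of HFC, HF5 and HF20, and the probe was well above background on only 3 of the 6 HF75 arrays.

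The rest of the SREBP machinery varied less. Group means of Scap lay between 2.74 ± 0.45 (SD, n = 6) in HF5 and 3.38 ± 0.39 (SD, n = 6) in HF20. Those of Insig2, the second anchor, lay between 0.67 ± 0.49 (SD, n = 10) in HFC and 1.27 ± 0.60 (SD, n = 6) in HF20. Those of Srebf2, the regulator of cholesterol synthesis, lay between -2.86 ± 0.71 (SD, n = 6) in HF5 and -2.13 ± 0.47 (SD, n = 10) in LFC. Neighbours in these orders differed by less than the SD of either group.

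Mlxipl varied most of the 9. Its level ran from -0.78 through a median of 1.43 to 5.71 in LFC and from -1.20 through 0.18 to 4.598 in HFC. It ran from -0.75 through 0.35 to 1.33 in HF5 and from -0.22 through 4.37 to 4.73 in HF20. In HF75 it ran from -2.40 through -1.30 to -0.20. The values fell into separate bands. On 10 of the 11 bright arrays Mlxipl lay between 4.08 and 5.71, and on the 27 dim arrays between -2.15 and 1.51. The remaining bright array was HF75 at Week 3, the one with little Ucp1, where Mlxipl was at -2.40, its lowest level in the series. At that week the LFC, HFC and HF20 arrays were bright too, with Mlxipl at 5.71, 4.598 and 4.67, and the dim HF5 array was at -0.75. On dim arrays alone the group means were 0.53 ± 0.94 (SD, n = 6) in LFC, -0.17 ± 0.85 (SD, n = 8) in HFC, 0.31 ± 0.73 (SD, n = 6) in HF5 and -1.09 ± 0.77 (SD, n = 5) in HF75. The 2 dim arrays of HF20 were at -0.22 and 1.28. Mlx, the partner that ChREBP needs to bind DNA, had a narrower range. Its means were 0.22 ± 0.49 (SD, n = 10) in LFC, -0.08 ± 0.50 (SD, n = 10) in HFC, -0.19 ± 0.50 (SD, n = 6) in HF5, 0.44 ± 0.52 (SD, n = 6) in HF20 and -0.76 ± 0.33 (SD, n = 6) in HF75.

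The oxysterol receptors behaved unlike each other. Nr1h3 ran from 1.03 through a median of 1.504 to 3.19 in LFC and from 0.87 through 1.26 to 3.08 in HFC. It ran from 0.83 through 1.92 to 2.17 in HF5, from 1.65 through 2.57 to 3.36 in HF20 and from 1.08 through 1.16 to 1.28 in HF75. The 6 HF75 levels lay within a narrow band below all 6 HF20 levels. Nr1h2 had group means between 0.92 ± 0.60 (SD, n = 6) in HF75 and 1.43 ± 0.47 (SD, n = 10) in LFC, a span below the SD of 4 of the 5 groups.

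The difference in mean level between bright and dim arrays was 4.19 for Mlxipl, 2.49 for Srebf1, 2.16 for Insig1 and 1.21 for Nr1h3, on the log2 scale. Against all 21625 genes, whose median difference was -0.30, these stood at percentiles 99.96, 98.4, 97.2 and 87.9. The other differences were 0.87 for Insig2, 0.71 for Scap, 0.70 for Mlx, 0.41 for Srebf2 and -0.22 for Nr1h2. Brightness is a property of the scanned array, and how much of these differences it accounts for was not tested.

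The first comparison asked whether the high-fat diet alone changed the regulators over the whole course. All 9 were lower in HFC than in LFC on average (8 of 9 with normexp background correction or with brightness in the fit), as were 45.2% of all genes. By limma 0 of the 9 passed an adjusted p of 0.05, and 0% of all genes did. At an unadjusted p under 0.05 there was 1 regulator, Insig1, and there were 1497 genes. Insig1 differed by -1.13 (log2, SE 0.45, adjusted p = 0.648, limma) and was lower at 7 of 10 time points. Mlxipl differed by -1.72 (SE 0.80, adjusted p = 0.648, limma) and was lower at 8 of 10 time points. Srebf1 differed by -0.99 (SE 0.49, adjusted p = 0.648, limma), also lower at 8 of 10. The other 6 differed by -0.41 to -0.14. The second Insig1 probe differed by -1.54 (SE 0.38, adjusted p = 0.653, limma).

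Of the 10 time points 6 had both arrays in the same brightness class, and there the differences were smaller. They were -0.78 for Insig1, -0.76 for Mlxipl and -0.39 for Srebf1. With the brightness of the array in the fit they were -0.76, -0.74 and -0.25. The largest single differences came from time points with 1 bright and 1 dim array. For Mlxipl these ran down to -6.21, at Week 0, and up to 2.92, at Day 10. On the 9 time points with both arrays scanned on the same day the mean differences were -1.02 ± 1.59 (SD) for Insig1, -1.47 ± 2.87 (SD) for Mlxipl and -0.73 ± 1.57 (SD) for Srebf1. In the same comparison all 8 lymphocyte markers were higher in HFC (0 passed, median 1.12), as were all 6 erythroid markers (0 passed, median 0.90). Their part in the result was not tested.

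**Figure D2:**
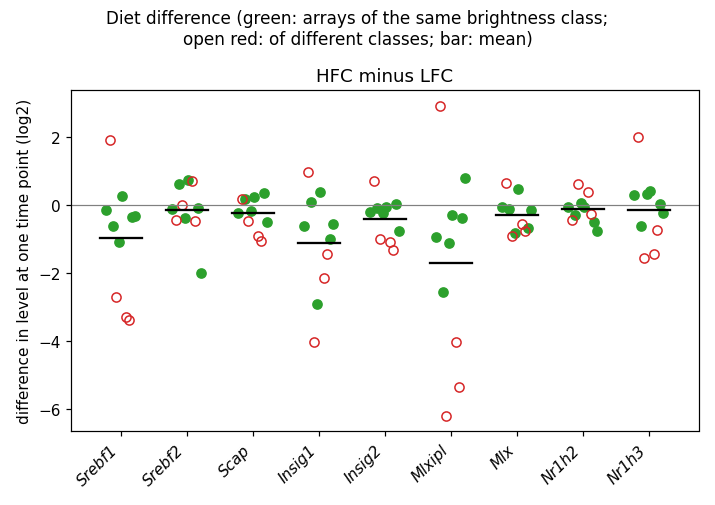
Difference in level, HFC minus LFC, at each shared time point (log2, vertical axis) for each of the 9 regulators, 10 time points each. Filled green points compare arrays of the same brightness class, open red points arrays of different classes, and bars are means. The means of all 9 lie below 0, and the extreme points of Mlxipl, at -6.21 and 2.92, are open.

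Weeks 3 to 18 of LFC and HFC, fitted with the dose groups, again gave no calls. All 9 regulators were lower in HFC (8 of 9 with normexp or with brightness in the fit), as were 46.5% of all genes, and 0 passed the adjusted threshold, which 0.00925% of all genes did. Srebf1 differed by -1.38 (SE 0.59, adjusted p = 0.352, limma), Insig2 by -0.59 (SE 0.30, adjusted p = 0.366, limma) and Insig1 by -1.29 (SE 0.66, adjusted p = 0.368, limma). Each was lower at 5 of 6 time points. With brightness in the fit the values were -0.43 for Srebf1, -0.13 for Insig2 and -0.54 for Insig1. Lymphocyte markers were higher in HFC for 8 of 8 (median 1.27) and erythroid markers for 6 of 6 (median 1.38), and skeletal muscle markers were lower for 10 of 12 (median -0.60), with 0 passing in each list. Their part in the result was not tested.

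Change over time on diet was fitted per 28 days over the 20 LFC and HFC arrays, with a term for diet and none for the time point. All 9 regulators had a negative slope, as did 46.7% of all genes. Srebf2 alone passed the adjusted threshold, as did 1.41% of all genes and, among falling genes, 0.495%. It fell by 0.33 per 28 days (log2, SE 0.08, adjusted p = 0.0477, limma). Its lowest level, -4.74 in HFC at Week 18, was not above background, and without Week 18 the slope was -0.23 (adjusted p = 0.433, limma). It passed in 2 of the 10 fits that left out 1 time point. After normexp background correction the slope was 0.09, in the opposite direction. Mlx had a slope of -0.14 (SE 0.06, adjusted p = 0.212, limma) and Nr1h2 of -0.12 (SE 0.07, adjusted p = 0.357, limma). The other slopes ran from -0.34 to -0.03. For the product of diet and days, which asks whether the diet difference changed with time, 0 of 9 regulators and 0% of all genes passed, and 0 of 9 had an unadjusted p under 0.05, as 3283 genes did. The values with the smallest p were -0.22 (SE 0.15, adjusted p = 0.543, limma) for Srebf2, -0.12 (SE 0.10, adjusted p = 0.662, limma) for Nr1h2 and -0.14 (SE 0.13, adjusted p = 0.673, limma) for Insig2.

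Each dose of Kal-1 was then set against the same HFC arrays, which the 3 comparisons share. At 5 µg no regulator stood out. By limma 0 of 9 passed, 0% of all genes did, and 0 of 9 regulators had an unadjusted p under 0.05, as 1193 genes did. Nr1h3 differed by 0.25 (SE 0.37, adjusted p = 0.914, limma), Insig1 by -0.40 (SE 0.66, adjusted p = 0.925, limma) and Insig2 by 0.17 (SE 0.30, adjusted p = 0.928, limma). The second probes gave 0.04 for Insig1 and -0.04 for Insig2, each on the other side of 0. The other 6 lay between -0.47 and 0.16. All 12 skeletal muscle markers were higher in HF5 (0 passed, median 0.78) and all 8 lymphocyte markers lower (0 passed, median -0.66), and their part was not tested.

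At 20 µg all 9 regulators were higher than in HFC (8 of 9 with quantile normalization or normexp, 6 of 9 on time points of 1 brightness class), as were 42% of all genes. By limma 0 of 9 passed the adjusted threshold, and 0% of all genes did. At an unadjusted p under 0.05, 6 of the 9 were higher, as were 13.4% of all genes. Srebf1 differed by 1.73 (SE 0.59, 3.33-fold, adjusted p = 0.121, limma) and was higher at 6 of 6 time points. Nr1h3 differed by 1.03 (SE 0.37, 2.05-fold, adjusted p = 0.121, limma) and Mlxipl by 2.42 (SE 1.03, 5.36-fold, adjusted p = 0.127, limma), both higher at 5 of 6. The other 6 differed by 0.10 to 0.87. Of the 6 HF20 arrays 4 were bright, and 3 of these were set against dim HFC arrays. On the 3 time points of 1 brightness class Srebf1 differed by 0.40, Nr1h3 by 0.26 and Mlxipl by -0.19, which turned the direction of Mlxipl. In the same comparison all 12 skeletal muscle markers were higher in HF20, with a median of 1.83, all 6 erythroid markers were lower, with a median of -1.54, and 7 of 8 lymphocyte markers were lower, with a median of -1.09 (0 passed in each list). Their part in the result was not tested.

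At 75 µg Mlxipl, Mlx and Insig1 had the smallest p. By limma 0 of 9 passed, 0% of all genes did, and 0 of 9 had an unadjusted p under 0.05, as 2003 genes did. Mlxipl differed by -2.09 (SE 1.03, adjusted p = 0.546, limma) and was lower than in HFC at 6 of 6 time points, with differences from -7.001 to -0.01. Mlx differed by -0.55 (SE 0.28, adjusted p = 0.549, limma), lower at 4 of 6, and Insig1 by -1.29 (SE 0.66, adjusted p = 0.551, limma), lower at 5 of 6. The other 6 lay between -0.33 and 0.28. At all 6 time points the HF75 and HFC arrays were of the same brightness class. Without the HF75 array of Week 3 the values were -1.497 for Mlxipl, -0.44 for Mlx and -1.05 for Insig1. Without Week 3 in all groups they were -1.104 for Mlxipl, -0.41 for Mlx and -1.04 for Insig1. The second Insig1 probe gave -0.49. Brown adipocyte markers were lower in HF75 for 8 of 10, with a median of -0.98 (0 passed), and 11 of 12 skeletal muscle markers were higher, with a median of 0.59 (0 passed). The marker fits kept the HF75 array of Week 3, where Ucp1 was at -3.07 and Cidea at -1.78, against 6.57 and 6.56 in HFC. At the other weeks Ucp1 ran from 5.53 to 6.96 in HF75 and from 6.04 to 8.24 in HFC. The markers were not refitted without that array. Erythroid markers were lower for 6 of 6 (0 passed, median -0.44) and lymphocyte markers for 7 of 8 (0 passed, median -0.47). Their part in the result was not tested.

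**Figure D3:**
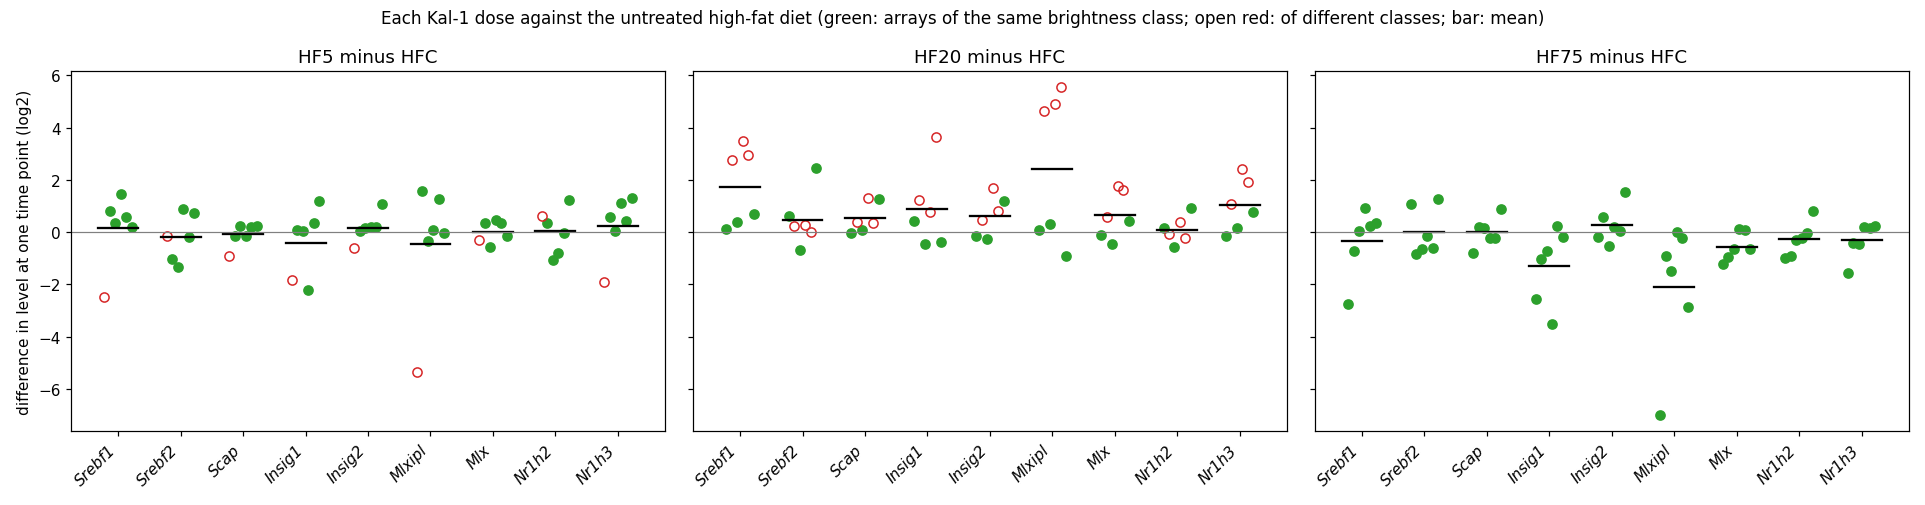
Difference in level between the array of each Kal-1 dose and the HFC array of the same week (log2, vertical axis, shared by the panels) for the 9 regulators, 6 weeks each. Filled green points compare arrays of the same brightness class, open red points arrays of different classes, and bars are means. In the HF20 panel the 3 highest Mlxipl points are open, and in the HF75 panel every point is filled.

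The highest dose was then set against the middle dose. All 9 regulators were lower in HF75 than in HF20 (8 of 9 with normexp or with brightness in the fit), as were 39.7% of all genes. By limma 5 of the 9 passed the adjusted threshold, all lower in HF75. Of all genes 25.9% passed in either direction and 13% passed as lower in HF75. Mlxipl fell by 4.51 (log2, SE 1.03, 22.8-fold, adjusted p = 0.0144, limma), Mlx by 1.19 (SE 0.28, 2.29-fold, adjusted p = 0.0144, limma) and Nr1h3 by 1.34 (SE 0.37, 2.53-fold, adjusted p = 0.0192, limma). Srebf1 fell by 2.06 (SE 0.59, adjusted p = 0.0210, limma) and Insig1 by 2.16 (SE 0.66, adjusted p = 0.0251, limma). The first 4 were lower at 6 of 6 time points and Insig1 at 5 of 6. The HF75 and HF20 levels of Mlx and of Nr1h3 did not overlap, which held for 3.78% of all genes in this direction. Those of the other 3 overlapped, for Mlxipl only between the highest HF75 level, -0.20, and the lowest HF20 level, -0.22. Scap, Srebf2, Nr1h2 and Insig2 differed by -0.56 to -0.35.

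None of these calls remained with array brightness in the fit or on time points of 1 brightness class. Bright arrays numbered 4 of 6 in HF20 and 1 of 6 in HF75, so dose and brightness cannot be fully told apart. The calls were also lost with normexp background correction, where 0 of the 9 and 0 of all 21625 genes passed. The counts under the other settings stand without the share of all genes, so they are not results about the regulators alone. Only 3 of the 6 time points had both arrays in the same class, and on those 0 of the 9 passed. The values were -3.59 for Mlxipl, -0.81 for Mlx, -0.86 for Nr1h3, -1.18 for Srebf1 and -1.01 for Insig1. The 3 include Week 3, with the HF75 array low in Ucp1, where Mlxipl, Srebf1 and Insig1 differed by -7.07, -2.88 and -2.96. At Week 9 they differed by -1.79, -0.31 and -0.27, and at Week 18 by -1.93, -0.34 and 0.19. At Weeks 3, 9 and 18 Mlx differed by -1.14, -0.21 and -1.08, and Nr1h3 by -1.40, -0.62 and -0.56. With brightness in the fit 0 of 9 passed, with values of -3.15 for Mlxipl, -0.96 for Mlx, -0.80 for Nr1h3, -1.12 for Srebf1 and -1.41 for Insig1. Without the HF75 array of Week 3, Mlxipl (-3.92), Mlx (-1.09) and Nr1h3 (-1.29) passed, and Srebf1 (-1.80) and Insig1 (-1.92) did not. Without Week 6, Week 12 or Week 15, 0 of the 9 passed. The second Insig1 probe differed by -1.39 and did not pass (adjusted p = 0.110, limma). In the same comparison all 12 skeletal muscle markers were lower in HF75 (0 passed, median -1.02), all 6 erythroid markers higher (0 passed, median 1.07) and 8 of 10 brown markers lower (4 passed, median -1.94). These marker fits kept the HF75 array of Week 3. Of 5 white adipocyte markers 3 passed as lower and 1 as higher (median -2.22). Their part in the result was not tested.

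**Figure D4:**
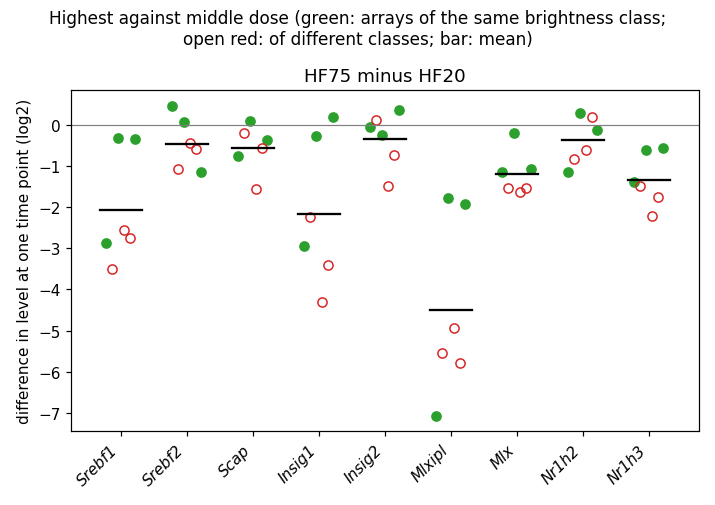
Difference in level between the HF75 and the HF20 array of the same week (log2, vertical axis) for the 9 regulators, 6 weeks each. Filled green points compare arrays of the same brightness class, open red points arrays of different classes, and bars are means. All 6 points of Mlxipl, Mlx, Nr1h3 and Srebf1 lie below 0.

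The middle dose against the lowest, which shares the HF20 arrays, gave 0 of 9 regulators and 0% of all genes past the adjusted threshold, with 5 regulators and 7786 genes at an unadjusted p under 0.05. Mlxipl differed by 2.89 (SE 1.03, adjusted p = 0.0745, limma), Srebf1 by 1.57 (SE 0.59, adjusted p = 0.0804, limma) and Scap by 0.64 (SE 0.26, adjusted p = 0.0938, limma), all higher in HF20. The other 6 differed by 0.05 to 1.27. Here 2 of 6 time points were of the same brightness class, and on those Mlxipl differed by -0.13. With the brightness class in the fit Srebf1 differed by -0.04. Under either setting 5 of 9 regulators were higher in HF20. Skeletal muscle markers were higher for 11 of 12 (0 passed, median 0.96) and erythroid markers lower for 6 of 6 (0 passed, median -1.37), and their part was not tested.

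The genes that the regulators are known to act on were counted by list. The 23 SREBP2 sterol targets are mostly enzymes of cholesterol synthesis. Under the high-fat diet 21 of 23 were lower in HFC over all time points (0 passed), with a median of -1.004 against 0.05 for all genes. Cyp51, a sterol demethylase, differed by -1.45 (SE 0.37, adjusted p = 0.648, limma), and Sqle, squalene epoxidase, by -1.53 (SE 0.39, adjusted p = 0.648, limma). On time points of 1 brightness class 20 of 23 were lower, with a median of -0.55. The 14 lipogenic targets of SREBP1 and ChREBP hold the enzymes that make and desaturate fatty acids. All 14 were lower in HFC (0 passed), with a median of -1.05, and 13 of 14 on time points of 1 class, with a median of -0.66. Scd1, the stearoyl-CoA desaturase, differed by -2.09 (SE 0.34, adjusted p = 0.278, limma) and Elovl6, a fatty acid elongase, by -2.91 (SE 0.57, adjusted p = 0.625, limma).

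In HF75 against HF20, 11 of the 14 lipogenic targets were lower, 10 of them past the threshold, and 3 were higher, 1 past it. The median over the list was -2.22 against 0.27 for all genes. Of all genes 25.9% passed in this comparison, and 13% as lower in HF75. Scd1 fell by 2.69 (SE 0.51, adjusted p = 0.0133, limma) and Thrsp, a lipogenic factor, by 2.26 (SE 0.46, adjusted p = 0.0133, limma). Against the same shares, 19 of the 23 sterol targets were lower, 7 past the threshold, and 4 higher, 2 past it, with a median of -1.06. Lss, lanosterol synthase, fell by 2.98 (SE 0.69, adjusted p = 0.0144, limma) and Fdft1, squalene synthase, fell by 3.05 (SE 0.74, adjusted p = 0.0146, limma). With brightness in the fit 0 genes of either list passed, with 12 of 14 and 15 of 23 lower and medians of -1.95 and -0.46. Without the HF75 array of Week 3, 11 of 14 lipogenic and 18 of 23 sterol targets were lower. The medians were then -1.98 and -0.91, against 0.28 for all genes. Against HFC, HF75 gave 12 of 14 lipogenic targets lower (0 passed), with a median of -1.18, and 12 of 23 sterol targets higher (0 passed), with a median of 0.01. Thrsp differed there by -1.497 (SE 0.46, adjusted p = 0.530, limma) and Fasn, the fatty acid synthase, by -1.21 (SE 0.37, adjusted p = 0.530, limma). HF20 against HFC gave 10 of 14 lipogenic and 20 of 23 sterol targets higher (0 passed in either), with medians of 1.26 and 0.76, which on time points of 1 class were 0.03 and 0.14.

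The other lists are shorter, with 5 to 8 genes tested, and their calls in HF75 against HF20 stand beside the same 25.9% and 13% of all genes. Genes of these lists said to have fallen or risen in that comparison are those that passed the threshold. The 8 SREBP processing and retention partners hold the proteases that cut SREBP and the ubiquitin ligases that act on INSIG and HMG-CoA reductase. All 8 were higher in HF75 than in HFC (0 passed, median 0.48), led by Rnf145, a sterol-regulated ubiquitin ligase, with 1.06 (SE 0.24, adjusted p = 0.438, limma) and Syvn1 with 0.57 (SE 0.22, adjusted p = 0.530, limma). In HF75 against HF20, Rnf145 rose by 1.08 (SE 0.24, adjusted p = 0.0141, limma) and Mbtps2, the site-2 protease, by 1.90 (SE 0.46, adjusted p = 0.0148, limma), so 2 of 8 passed, close to the share of all genes, and the list's median of 0.15 lay below that of all genes. The 5 MLX network partners had 0 genes past the threshold in that comparison and a median of 0.69. Of the 5 LXR partners and corepressors 2 fell, Rxrg by 2.32 (SE 0.63, adjusted p = 0.0180, limma) and Rxrb fell by 1.099 (SE 0.34, adjusted p = 0.0252, limma), both dimer partners of LXR. Of 7 LXR targets tested (Abcg5 and Abcg8 were not) 3 fell and 1 rose, the last being Mylip, a ubiquitin ligase, by 2.16 (SE 0.49, adjusted p = 0.0144, limma). Of the 6 glucose-response targets 2 fell and 1 rose, with Arrdc4, a MondoA target, up by 2.44 (SE 0.60, adjusted p = 0.0151, limma) and Slc2a4, the insulin-responsive glucose transporter, down by 2.61 (SE 0.74, adjusted p = 0.0200, limma). With brightness in the fit 0 genes of these 5 lists passed.

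**Figure D5:**
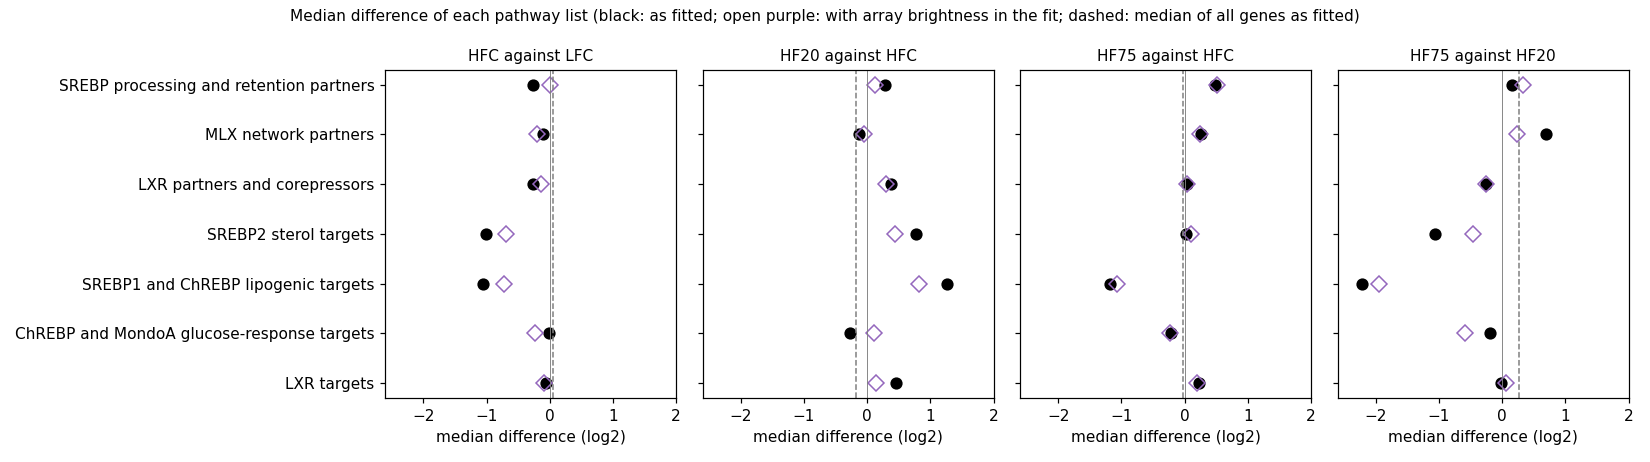
Median log2 difference (horizontal axis) of the genes of each of 7 pathway lists (rows) in 4 comparisons (panels). Black points are the fitted medians, open purple diamonds the medians with array brightness in the fit, and dashed lines the fitted median of all 21625 genes. The lipogenic targets have medians of -1.05, 1.26, -1.18 and -2.22 from left to right.

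Likeness of pattern was measured by Pearson's r over the 38 arrays, after a linear fit on the log2 brightness of the array was removed. It is a description over arrays that share diets, weeks and scan days. A linear fit need not remove a step between bright and dim arrays, so the likenesses may still follow brightness, which was not tested. For the 3 genes closest to Mlxipl the r without that fit was 0.96 to 0.97. For some pairs named below it was well under the r given, as with 0.69 for Insig1 and Acat2 and 0.40 for Srebf2 and Rhbdf2. Closest to Mlxipl were Ppp1r3b (r = 0.95), a glycogen-targeting subunit of protein phosphatase 1, Ppargc1b (r = 0.94), a coactivator of mitochondrial genes, and Entpd4 (r = 0.94). Closest to Srebf1 were BC004004 (r = 0.95), Tars2 (r = 0.94) and Lmf1 (r = 0.93), a maturation factor of lipases. Closest to Insig1 were Gm3866 (r = 0.87), 1700037H04Rik (r = 0.87) and Acat2 (r = 0.86), an acetyl-CoA acetyltransferase. Nr1h3 was closest to Glrx5 (r = 0.92), Trub2 (r = 0.92) and LOC676108 (r = 0.91), and Mlx to Lgtn, Psmb7 and Atpbd1b (r = 0.86 to 0.87). The remaining regulators had lower or like values, from Srebf2 with Rhbdf2, Fermt3 and Lck (r = 0.73 to 0.78) to Nr1h2 with Inpp5b, Ilk and Eif3f (r = 0.90 to 0.92). Scap was closest to Man2c1, Ap3m1 and 2010321M09Rik (r = 0.82 to 0.88) and Insig2 to Pdcd6, Rer1 and Rtn3 (r = 0.86 to 0.89).

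Among the regulators themselves correlations were taken within each brightness class. Over the 27 dim arrays Mlxipl went with its partner Mlx at r = 0.58 (rho = 0.53) and with Nr1h3 at r = 0.56 (rho = 0.53). Mlx went with Nr1h2 at r = 0.69 (rho = 0.72). Srebf1 and Insig1, a regulator and a target of the same pathway, stood at r = -0.09 (rho = -0.09) there and at r = 0.78 (rho = 0.44) over the 11 bright arrays. The bright values include HF75 at Week 3, where both were low.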

How the data were processed

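Total RNA of brown adipose tissue was amplified linearly, labelled with Cy3 and hybridised to 38 custom Agilent arrays, 1 per group and time point. The deposited intensity values are the processed signals of Agilent Feature Extraction, version 10.5.1.1 per the file headers and 9.1 per the labels. A deposited table of the authors' log2 fold changes against LFC was not used. Weeks were counted from day 14, so Day 14 and Week 0 fall on the same day.

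Control spots and 2492 flagged spots (0.150%) were left out and replicate spots averaged. Log2 signals were taken minus each array's 75th percentile, over 43803 spots. The probe with the highest mean stood for its gene, and a gene was tested if it was well above background on 6 or more arrays. Arrays over a 75th percentile of 600 were called bright. Groups were compared with limma 3.58.1 in R 4.3.3 with time point as a block, and p-values were Benjamini-Hochberg adjusted over all genes, with a threshold of 0.05. The comparison of HFC and LFC over all time points and the trends used their 20 arrays, and the other comparisons the 30 arrays of weeks 3 to 18. The fits were tested on simulated data. Full statistics are given for the 3 regulators with the smallest p in each comparison and for those that passed, and for the 2 genes of a pathway list with the smallest p. The regulators and lists were chosen with earlier results of these data known. Nothing says that arrays of a group come from separate animals, so p-values measure the spread between arrays over time, which may be technical in part. The number of arrays limits the precision.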

Additional observations from a re-analysis of the deposited data

Results flagged for a closer look

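Among 45 sets of levels, 1 per regulator and group, 5 had an array that stood apart by Dixon's test at the 95% level, which chance gives in about 1 of 20 sets. Srebf1 was at 3.21 in HF75 at Week 12, the next highest HF75 level being 2.84. Srebf2 was at -4.74 in HFC at Week 18, where its probe was not well above background, the next lowest being -2.86. Mlx was at 0.75 in HF5 at Week 6, the next highest being -0.15. Nr1h2 was at 2.45 in LFC at Week 6, the next highest being 1.65, and at 2.31 in HF20 at the same week, the next highest being 1.31.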

How the results depend on the processing

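The counts of regulators past the threshold were 0 for HFC against LFC (both sets of time points), HF5 against HFC, HF75 against HFC and the product of diet and days under every alternative run. For HF75 against HF20 the count of 5 went to 0 with normexp background correction, where 0 of all 21625 genes passed. It was also 0 with brightness or brightness class as a covariate and on time points of 1 class. Without HF75 replicate 1 it was 3, and with array weights it was 6. With the filter of every array 4 of the 7 regulators tested passed, as did 4426 of 10662 genes. When 1 time point was left out the count ranged from 0 to 5. The count of 1 for the trend went to 0 with normexp, no filter on dim probes, the filter of every array, scan day as a block or brightness as a covariate, and ranged from 0 to 1 when 1 time point was left out. For HF20 against HF5 the count was 1 with the filter of every array, 2 with slide as a block and 5 with array weights, and ranged from 0 to 2 when 1 time point was left out. For HF20 against HFC it was 4 with array weights and ranged from 0 to 2 when 1 time point was left out. Counts without a share of all genes beside them are not results about the regulators alone. The cause of these shifts was not tested.

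Among the 3 to 5 regulators followed in each comparison, directions turned in 8 cases, and others outside these turned too, as the counts of higher and lower regulators in the report show. The Srebf2 trend was 0.0926 with normexp. Against HFC, HF5 gave -0.0400 and 0.0357 for the second probes of Insig2 and Insig1, and Insig2 ranged from -0.00879 to 0.33 when 1 time point was left out. HF20 against HF5 gave -0.0411 for Srebf1 with brightness class and -0.13 for Mlxipl on time points of 1 class, where HF20 against HFC gave -0.19 for Mlxipl. The product for Srebf2 ranged from -0.28 to 0.0033 when 1 time point was left out. Of the other values 503 kept direction and side of the threshold, 50 lost a call and 13 gained one, counting each alternative apart.

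The time point served as the replicate block in the comparisons of groups and in the product of diet and days. The trend over days had a term for diet and none for the time point. Its LFC and HFC arrays of the same time point therefore counted as separate. Deviations of the LFC and HFC arrays of the same time point correlated across genes at r = -0.24 to 0.67. With no replicate block the counts were 0 for the other comparisons and 5 for HF75 against HF20, unchanged. The pathway lists with brightness, on time points of 1 class and without HF75 replicate 1 were alternatives chosen after seeing the data. Signal over background limits Srebf2 and Insig1 most, in HF75 above all.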
